A study of Homo sapiens with 32 samples.

Results

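Polysome loading at rest was examined in MCF10A, a non-tumourigenic human breast epithelial cell line, by setting polysomal mRNA against total mRNA of normoxic cultures. The members were the 4 of 32 RNA-Seq libraries that the labels assign to MCF10A, Normoxia: total RNA and polysomal RNA of replicate 1 and of replicate 2. In the sample titles, the total and the polysomal library of replicate 1 share the number 37 and those of replicate 2 share the number 41, and these are called culture 37 and culture 41 here. Cells were grown in medium with serum, EGF, hydrocortisone, cholera toxin and insulin, so the resting state is that of growth-factor-stimulated cells, and normoxic cultures without PP242 received the DMSO vehicle. The line is a single established line, and the polysomal fraction pooled a sucrose gradient from disomes to its end, so it reports whether an mRNA sat on polysomes and not how many ribosomes it carried. The other MCF10A groups used here for the fit or for comparison were Hypoxia (0.5% O2 for 24 h), Normoxia+PP242 (2.5 μM for 3 h; PP242 inhibits the kinase mTOR) and Hypoxia+PP242. Normoxic MDA-MB-231, a triple-negative breast cancer line grown in serum-containing medium without the added growth factors, was compared in the same way. Each group held 2 libraries, and nothing in the labels says whether the replicates were separate cultures, so the p-values measure the spread between these libraries only.

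An mRNA is bound by the cap-binding complex, scanned by the small ribosomal subunit from its 5′ end to a start codon and then read by a succession of ribosomes, which together form the polysome. Messages sediment as monosomes or as free ribonucleoprotein when initiation is blocked, when the open reading frame is too short to hold several ribosomes, or when the RNA is not read by cytosolic ribosomes at all, as for nuclear RNAs and for transcripts of the mitochondrial genome. Known regulators of loading include the iron-responsive element (IRE), a 5′ hairpin bound by iron regulatory proteins when iron is scarce, and the terminal oligopyrimidine (TOP) start of ribosomal protein mRNAs, through which mTOR signalling sets their translation.

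The sequences shown here are of genes on which the results turn. The first pair are windows of 30 bases in the 5′ untranslated regions of the ferritin chains FTH1 and FTL, read from GRCh38 with GENCODE annotation, with the 6-base loop of the iron-responsive element in capitals. The FTH1 window lies at chr11:61967574-61967603 on the minus strand and the FTL window at chr19:48965334-48965363 on the plus strand.
FTH1: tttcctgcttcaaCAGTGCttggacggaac
FTL: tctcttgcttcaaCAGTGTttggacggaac
The next 3 are whole coding sequences of short open reading frames, with the start and stop codons in capitals. RPL41 (25 codons; exons within chr12:56116788-56117524, plus strand) and RPL39 (51 codons; exons within chrX:119786684-119791576, minus strand) encode proteins of the large ribosomal subunit, and OST4 (37 codons; chr2:27071349-27071462, minus strand) encodes a subunit of oligosaccharyltransferase.
RPL41: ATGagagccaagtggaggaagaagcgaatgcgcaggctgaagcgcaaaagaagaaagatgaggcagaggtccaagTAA
OST4: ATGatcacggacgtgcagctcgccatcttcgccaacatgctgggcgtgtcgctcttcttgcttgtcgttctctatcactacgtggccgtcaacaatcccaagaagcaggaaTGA
RPL39: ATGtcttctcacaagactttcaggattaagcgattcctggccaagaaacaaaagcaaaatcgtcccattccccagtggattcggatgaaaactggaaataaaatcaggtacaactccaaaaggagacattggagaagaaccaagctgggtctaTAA
The last is the coding sequence of selenoprotein W (SEPW1 in the files, SELENOW in the annotation; 87 codons; exons within chr19:47778786-47781370, plus strand). The capitals mark the in-frame TGA at codon 13, which is read as selenocysteine in place of a stop.
SEPW1: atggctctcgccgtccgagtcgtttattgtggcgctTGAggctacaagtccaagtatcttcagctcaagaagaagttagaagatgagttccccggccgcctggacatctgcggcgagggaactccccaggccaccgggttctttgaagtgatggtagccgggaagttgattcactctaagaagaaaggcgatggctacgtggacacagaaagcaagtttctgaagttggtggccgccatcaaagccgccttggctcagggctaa

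The deposited files hold estimated read counts for 60554 genes. The totals of the 4 libraries were 35547567 reads (total RNA, culture 37), 43854886 (total RNA, culture 41), 35834206 (polysomal, culture 37) and 46032327 (polysomal, culture 41). Levels are given below as CPM (read counts scaled to a common library size with TMM factors), always in the order total RNA of cultures 37 and 41, then polysomal RNA of cultures 37 and 41. The log2 ratio of polysomal over total RNA is called loading, and it is relative, since scaling sets the average mRNA near 0 (the median of all genes tested was 0.02). Loading therefore says how an mRNA stood against the average message, and not what fraction of its copies was on polysomes.

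The labelled cell type was checked against markers. All 13 markers of basal breast epithelium had reads, and their summed level was 5375 and 4241 CPM in total RNA, with KRT5 at 1706 and 1160 CPM. TP63, a defining basal transcription factor, had only 3 and 1 reads in total RNA and 0 and 1 in polysomal RNA. Among 8 luminal markers PGR and ELF5 had no read in any of the 4 libraries, and the summed luminal level was 285 and 298 CPM in total and 717 and 390 CPM in polysomal RNA. The fibroblast list summed to 96.4 and 71.6 CPM in total and 168 and 107.7 CPM in polysomal RNA, of which DCN alone gave 87.6, 62.5, 161 and 97.6 CPM, while COL1A2, COL3A1, LUM and THY1 had at most 6 reads in any library. The sums were at most 7.72 CPM for the blood cell list and 0.310 CPM for the endothelial list. CA9, a hypoxia target, was at 9.94 and 8.43 CPM in total RNA.

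The 2 polysomal libraries differed from each other more than the 2 total libraries did. The standard deviation over genes of the log2 difference between replicates was 0.475 for total and 0.898 for polysomal RNA. In the polysomal library of culture 37 loading decreased with transcript length (Spearman's rank correlation across 13008 nuclear protein-coding genes −0.552, genes not being independent), while in culture 41 the same correlation was 0.0268. Among the 8909 genes at 10 CPM or more, 3981 had loading above 0 in both cultures, 1472 had it below 0 in both, and 3455 (38.8%) had opposite signs between cultures. Levels are therefore given for each library, and medians of the main lists also for each culture.

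**Figure D1:**
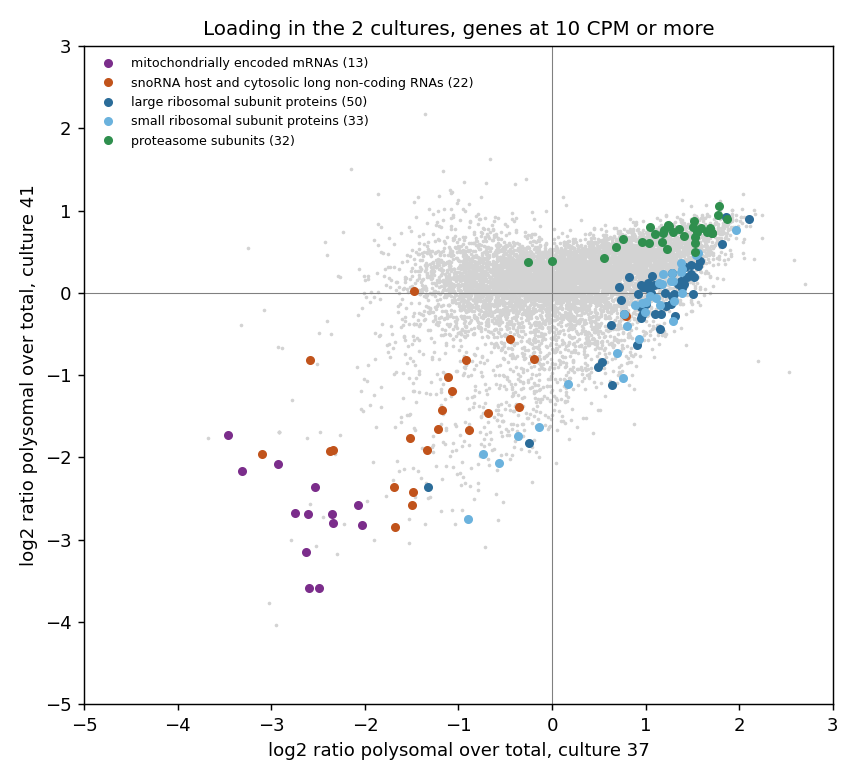
Loading (log2 polysomal over total RNA) of single genes at 10 CPM or more, culture 37 on the horizontal and culture 41 on the vertical axis, each point a gene and the named lists in colour. Values in culture 37 spread over a wider range (SD 0.833) than in culture 41 (SD 0.541), and the mitochondrial mRNAs lie in the lower left corner.

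Across all genes, the comparison of polysomal with total RNA in normoxic MCF10A gave no single gene past the threshold. With the threshold set at an edgeR adjusted p of 0.05, the quasi-likelihood test on all 16 MCF10A libraries called 0 of 16723 genes (0.0%) higher and 0 (0.0%) lower. Before adjustment, p fell under 0.05 for 1663 genes (9.94%) with more and 990 (5.92%) with less polysomal RNA. DESeq2 called 170 of 15527 genes (1.09%) higher and 242 (1.56%) lower. In the same 4 libraries fitted alone with culture as a block, edgeR called 39 genes higher and 453 lower, whereas with the block in all 16 libraries it called 1 gene, a Metazoa_SRP entry, lower and none of the other genes named below. Where the block in the 4 libraries gave a call for a gene whose levels are given below, its adjusted p is given beside the unblocked one. Such blocked values come from 4 libraries only, which leave little to estimate spread. They also rest on pairing by title, and the deviations of paired libraries correlated at −0.138 in normoxia. With the block in all 16 libraries, the edgeR adjusted p was 0.236 for RN7SL1, 0.337 for SNHG3, 0.345 for SEPW1 and 0.541 for MALAT1. With 2 libraries against 2, the smallest p an exact permutation test can give is 0.333.

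Because single calls were absent, gene classes are described by counts and medians beside those of all genes. Both polysomal libraries lay above both total libraries for 4785 genes (28.6%) and below them for 3834 genes (22.9%), and the groups overlapped for the other 8104. Among the 8909 genes at 10 CPM or more the shares were 40.1% above and 13.1% below. In MDA-MB-231, fitted on its own, the same edgeR comparison called 1045 of 16995 genes (6.15%) higher and 1642 (9.66%) lower, and these calls are given beside the MCF10A values. The medians of 34 gene lists in each culture are plotted next.

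**Figure D2:**
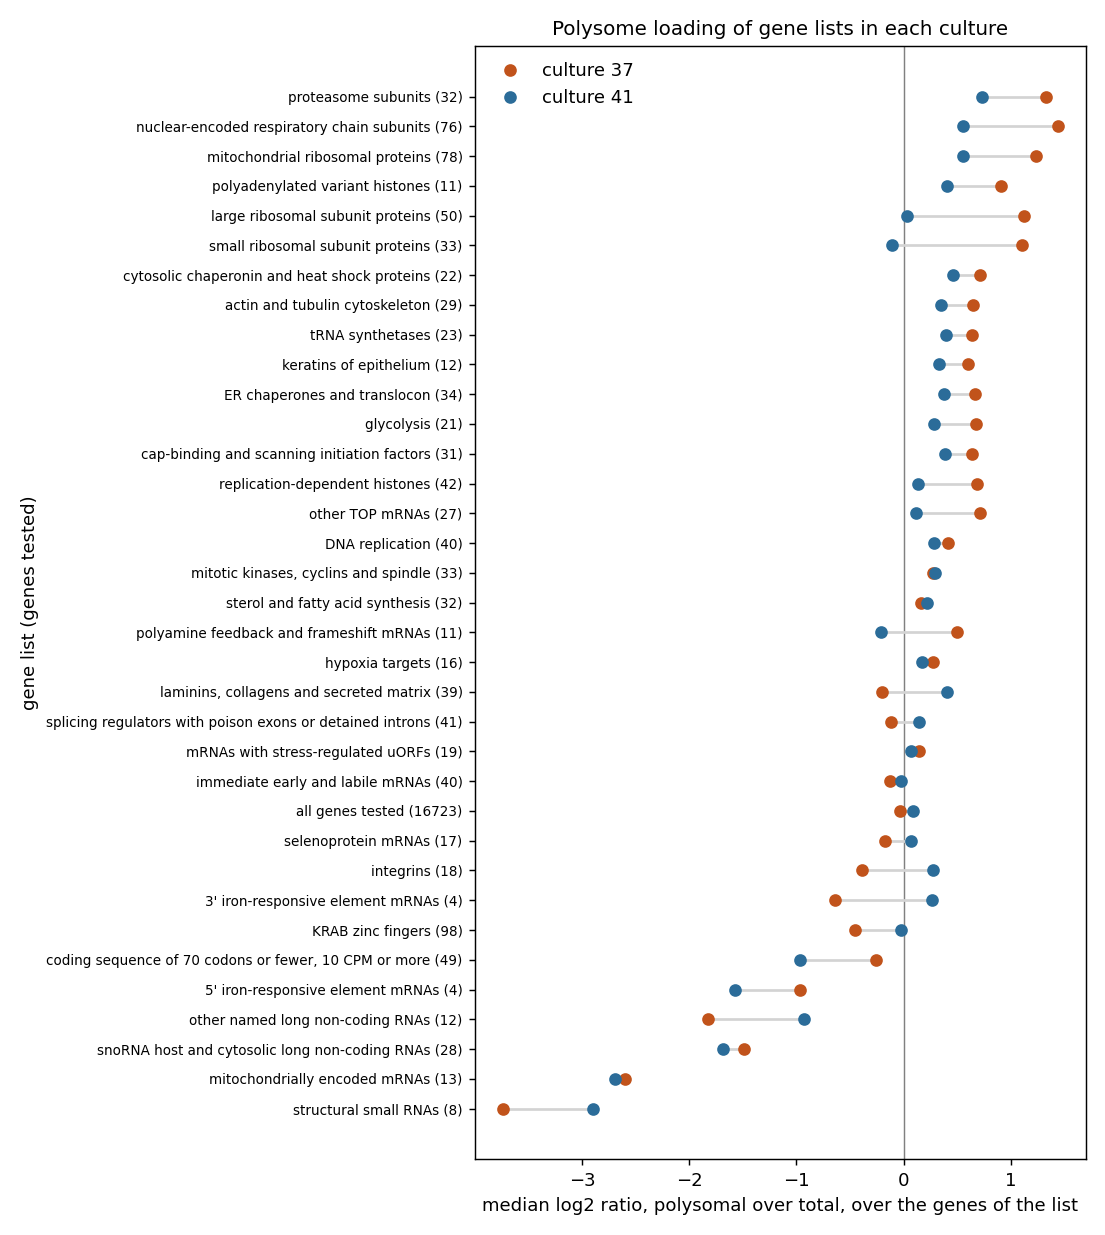
Median loading (log2 polysomal over total RNA) of 34 gene lists and of all genes tested in culture 37 and in culture 41, each list a row and each point the median of its tested members in that culture. Structural small RNAs, mitochondrial mRNAs, the list of small nucleolar RNA hosts and cytosolic non-coding RNAs and ferritin-type mRNAs are at the low end in both cultures, while proteasome and respiratory chain lists are at the high end in both.

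Transcripts of the mitochondrial genome were among the most depleted. They are transcribed and translated inside the organelle by mitochondrial ribosomes. Mitochondrially encoded mRNAs took 7.75% and 6.15% of the reads in total RNA but 0.896% and 0.748% in polysomal RNA, a mean of 6.95% ± 1.14 against 0.822% ± 0.105 (SD, n = 2 libraries each), and the 95% Wilson interval of each share was at most ± 0.00879 percentage points, which covers counting error only. All 13 mitochondrial mRNAs tested were lower in both polysomal libraries, beside 22.9% of all genes. The median loading of the 13 was −2.58 (−2.60 in culture 37 and −2.69 in culture 41), with a range from −2.96 for MT-CO2 to −2.27 for MT-ND1.

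MT-CO1, the catalytic subunit of cytochrome c oxidase, was at 22800 and 20540 CPM in total and 3686 and 2310 CPM in polysomal RNA. MT-ND4, a complex I subunit, was at 10080 and 6582 CPM against 1741 and 1282 CPM. Neither gene's groups overlapped, and loading was −2.85 ± 0.63 (SE) for MT-CO1 (edgeR adjusted p = 0.152, or 0.0303 with the culture block in the 4 libraries, DESeq2 adjusted p = 0.000257) and −2.46 ± 0.36 for MT-ND4 (edgeR adjusted p = 0.0661, or 0.0375 with the block, DESeq2 adjusted p = 7.1e-11). DESeq2 called all 13 mRNAs lower. The large mitochondrial rRNA MT-RNR2 was at 4066 and 2829 CPM in total and 500 and 208 CPM in polysomal RNA, a loading of −3.28 ± 0.42 (edgeR adjusted p = 0.0661, or 0.000296 with the block). In MDA-MB-231, edgeR called 12 of the 13 mRNAs and both rRNAs lower (background 9.66%). The mRNA median there was −2.56, beside −2.57 in hypoxic MCF10A.

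Non-coding RNAs of the nucleus and cytosol were also depleted. Long intergenic non-coding RNAs (869 tested) had a median loading of −0.70, and 464 of them were lower and 52 higher without overlap. Genes annotated as antisense (1163 tested) had a median of −0.65 (−0.64 and −0.54 in the cultures), with 601 lower and 98 higher, but the protocol used here does not state strand, so their reads cannot be told apart from those of the overlapping genes. For comparison, the 13124 nuclear protein-coding genes had a median of 0.09, with 2163 lower and 4372 higher. The medians of the lincRNA class were −0.62 and −0.59 in cultures 37 and 41 and −0.57 in MDA-MB-231. Libraries were poly(A)-selected, so non-polyadenylated RNAs were measured only in part.

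The list of small nucleolar RNA hosts, which are spliced and polyadenylated transcripts, with some other cytosolic long non-coding RNAs was low with few exceptions. Of 30 listed, 28 were tested, with a median of −1.61 (−1.49 and −1.68 in the cultures). Of these, 26 were lower in both polysomal libraries and none was higher, beside 22.9% and 28.6% of all genes. Their exceptions were 2 genes whose groups overlapped, among them LINC00152, at 59.2 and 55.9 CPM in total and 102.4 and 45.9 CPM in polysomal RNA. SNHG3 was at 211 and 176 CPM in total and 40.5 and 46.4 CPM in polysomal RNA, a loading of −2.15 ± 0.46 (edgeR adjusted p = 0.149, or 0.000425 with the block, DESeq2 adjusted p = 0.00053).

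GAS5, itself a TOP-type transcript, was at 353 and 334 CPM against 191 and 105.2 CPM, a loading of −1.21 ± 0.64 (edgeR adjusted p = 0.387). The 2 polysomal values lay below both total values, but their own spread was wide. In MDA-MB-231, 21 of 25 members of this mixed list tested there were called lower by edgeR, at a median of −1.20, against a background of 9.66%.

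The nuclear architectural RNA NEAT1, the scaffold of paraspeckles, was at 1009 and 543 CPM in total and 79.0 and 160 CPM in polysomal RNA, a loading of −2.70 ± 0.82 (edgeR adjusted p = 0.192, or 0.000428 with the block, DESeq2 adjusted p = 0.0179). MALAT1, a nuclear speckle RNA, was at 101.3 and 51.9 CPM against 13.3 and 32.9 CPM (edgeR adjusted p = 0.509, or 0.00285 with the block). Both polysomal libraries were below both total libraries for each, while the depth of the depletion differed between cultures for both (log2 ratios −3.67 and −1.77 for NEAT1, −2.93 and −0.65 for MALAT1). Of 12 such named long non-coding RNAs tested, 9 were lower without overlap and none was higher, beside 22.9% and 28.6% of all genes. The list median was −1.35 (−1.83 and −0.93 in the cultures), and 7 of the 11 tested in MDA-MB-231 were called lower (background 9.66%).

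Structural small RNAs were detected only at low level after poly(A) selection. RN7SL1, the RNA of the signal recognition particle, was at 27.4 and 27.4 CPM in total and 1.14 and 0.248 CPM in polysomal RNA (edgeR adjusted p = 0.093, or 2.75e-25 with the block, DESeq2 adjusted p = 3.14e-07), and RN7SK, which restrains transcription elongation, was at 10.5 and 9.78 CPM against 0.894 and 0.166 CPM (edgeR adjusted p = 0.192, or 7.16e-15 with the block). Beside 22.9% of all genes, 7 of the 8 members tested were lower without overlap. These genes have many near-identical copies, so the assignment of their reads is uncertain.

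Among the other annotation classes placed below the protein-coding median in loading were processed transcripts (203 tested, median −0.84) and transcribed unprocessed pseudogenes (220 tested, median −0.78). Processed pseudogenes (553 tested) had a median of 0.27. Their sequences resemble the parent mRNAs, among them ribosomal protein mRNAs, and the reads assigned to them are uncertain for that reason.

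The mRNAs of both ferritin chains were low on polysomes. FTH1, the ferritin heavy chain that stores iron, was at 5403 and 6178 CPM in total and 2382 and 982 CPM in polysomal RNA, a loading of −1.78 ± 0.60 (edgeR adjusted p = 0.211, DESeq2 adjusted p = 0.0744). FTL, the light chain, was at 466 and 679 CPM against 238 and 108.9 CPM, a loading of −1.72 ± 0.62 (edgeR adjusted p = 0.226, or 0.0303 with the block). The groups did not overlap for either chain, and loading was lower in culture 41 than in culture 37 for both (−2.65 against −1.18 for FTH1).

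EPAS1 (the hypoxia-inducible factor HIF-2α), whose mRNA also has an IRE in the 5′ untranslated region, was at 64.8 and 87.8 CPM against 33.0 and 62.1 CPM. In all, 3 of 4 tested members of this list were lower without overlap and none was higher, with a list median of −1.20 (−0.97 and −1.57 in the cultures). Over all genes at 10 CPM or more, 13.1% were lower and 40.1% higher. The mRNAs with 3′ elements, among them TFRC (the transferrin receptor, at 112.4 and 111.2 CPM against 39.7 and 118 CPM), overlapped in 4 of 4 cases. Of all genes tested, 48.5% overlapped. In MDA-MB-231 both ferritin mRNAs were called lower by edgeR (loading −2.54, adjusted p = 0.000119 for FTH1, and −2.91, adjusted p = 0.000155 for FTL). Letters of the element (CNNNNNCAGTGN on the sense strand, the first 250 bases of the transcript, any position) were found in FTH1, FTL and EPAS1 but also in 1087 of 13007 transcripts searched (8.36%), whose median loading was 0.09. A match to these letters is a description of sequence and not a hairpin.

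Selenoproteins, which insert selenocysteine at UGA codons, varied among themselves. The 17 members tested had a median loading of 0.00 (−0.17 and 0.07 in the cultures), with 4 higher and 4 lower without overlap, beside 28.6% and 22.9% of all genes and 40.1% and 13.1% of those at 10 CPM or more. SEPW1, whose coding sequence with the in-frame TGA is printed above, was the lowest, at 82.5 and 85.5 CPM in total and 14.3 and 10.1 CPM in polysomal RNA, a loading of −2.79 ± 0.54 (edgeR adjusted p = 0.118, or 5.95e-08 with the block, DESeq2 adjusted p = 0.00011). GPX4, the phospholipid hydroperoxidase, was at 134 and 159 CPM against 88.9 and 29.1 CPM (loading −1.32 ± 0.61, edgeR adjusted p = 0.32, or 0.0303 with the block).

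In the other direction, SELK, a membrane protein of the endoplasmic reticulum, was at 21.5 and 21.6 CPM in total and 68.8 and 31.5 CPM in polysomal RNA, a loading of 1.22 ± 0.44 (edgeR adjusted p = 0.228). In MDA-MB-231, 4 of 16 tested members were called lower by edgeR (background 9.66%) and none higher (6.15%). SEPW1 (loading −2.58, adjusted p = 0.000156) and GPX4 (−2.63, adjusted p = 3.25e-05) were among those called lower by edgeR.

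**Figure D3:**
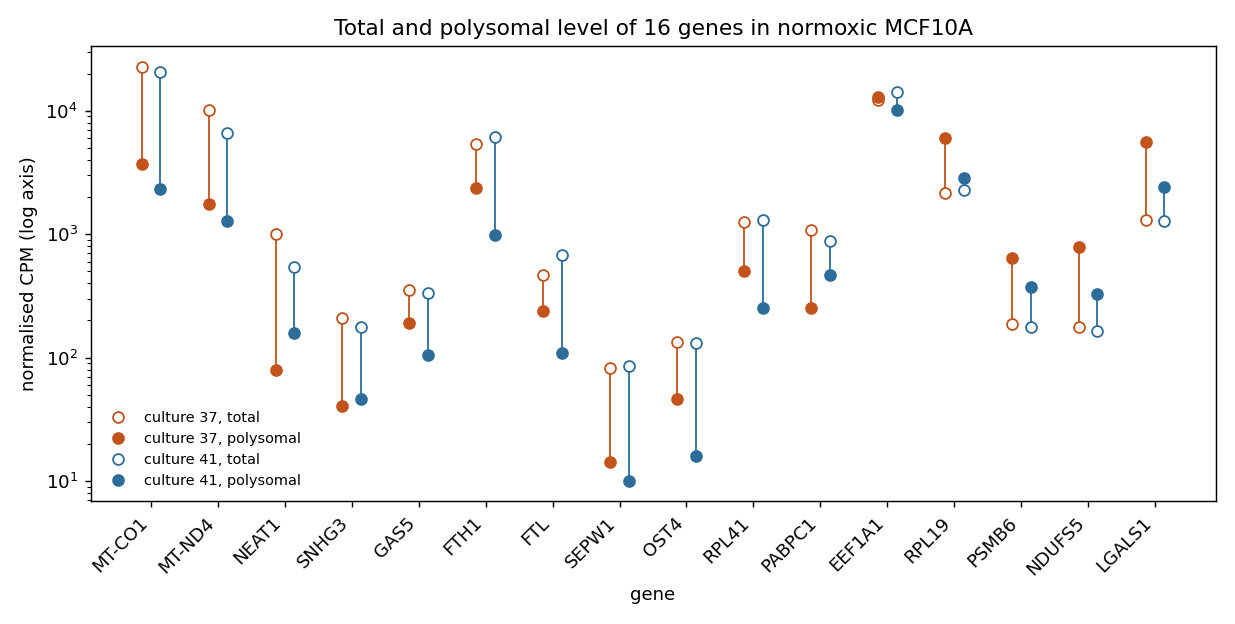
Level of 16 genes in each of the 4 libraries, as TMM-normalised CPM on a log axis, with open circles for total and filled circles for polysomal RNA, a line joining the libraries of a culture, and colours for cultures 37 and 41. The filled circles lie below the open ones in both cultures from MT-CO1 to PABPC1 and above them for RPL19, PSMB6, NDUFS5 and LGALS1, while EEF1A1 overlaps.

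Messages with very short coding sequences were low on polysomes. Of the 49 genes at 10 CPM or more with at most 70 codons, 28 were lower in both polysomal libraries and none was higher, against 13.1% lower and 40.1% higher among all genes at that level. The median loading of the 49 was −0.60 (−0.26 in culture 37 and −0.97 in culture 41). In MDA-MB-231 edgeR called 30 of the 49 lower (background 9.66%) and none higher (6.15%), at a median of −0.69. These genes overlap with other lists, since some encode ribosomal proteins or respiratory chain subunits.

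RPL41, with 25 codons, was at 1262 and 1301 CPM in total and 502 and 253 CPM in polysomal RNA, a loading of −1.76 ± 0.60 (edgeR adjusted p = 0.214). OST4, with 37 codons, was at 134 and 130 CPM against 46.5 and 15.8 CPM, a loading of −2.09 ± 0.67 (edgeR adjusted p = 0.201, or 0.000119 with the block). The groups did not overlap for either gene, and both were called lower in MDA-MB-231 (RPL41 loading −1.80, adjusted p = 0.0015, OST4 −2.51, adjusted p = 1.37e-05, edgeR).

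ATP5E, the 51-codon epsilon subunit of ATP synthase, was at 275 and 248 CPM against 110 and 44.1 CPM (edgeR adjusted p = 0.223, or 0.0048 with the block). C12orf75 (63 codons) was at 186 and 216 CPM against 37.8 and 24.0 CPM, and GNG10, a G protein gamma subunit of 68 codons that shares exons with the readthrough gene DNAJC25-GNG10, was at 129 and 123 CPM against 27.6 and 17.6 CPM. DESeq2 called both C12orf75 (adjusted p = 0.000182) and GNG10 (adjusted p = 4.96e-06) lower. The main edgeR fit called neither, while edgeR with the block in the 4 libraries called both (GNG10 adjusted p = 0.0886, or 6.95e-06 with the block, and C12orf75 0.121, or 4.33e-06 with the block).

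Not all short frames were low. RPL39, with 51 codons, was at 623 and 672 CPM in total and 1387 and 495 CPM in polysomal RNA, so its groups overlapped at a loading of 0.54 ± 0.61. The actin-sequestering peptide gene TMSB10 (44 codons) was at 2069 and 2054 CPM against 2256 and 1345 CPM, and the metallothionein MT2A, a zinc-binding protein, was at 6215 and 5744 CPM against 7101 and 4469 CPM, both overlapping. The highest of the 49 was NDUFA1, a complex I subunit of 70 codons, at a loading of 0.93 with overlapping groups. RPL39 and ATP5E have the same number of codons but lay on opposite sides of 0 in culture 37.

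Over all nuclear protein-coding genes, loading went up with coding length only at the short end in both cultures. The median was −0.64 for at most 70 codons (80 genes), −0.30 for 71 to 100 codons (215 genes), 0.32 above 100 and up to 150 codons (613 genes) and 0.33 for 201 to 300 codons (1774 genes). In culture 41 these medians were −0.72, −0.61, −0.07 and 0.18 and stayed near 0.19 above 1000 codons. In culture 37 they were −0.36, 0.02, 0.59 and 0.53, and the median was −0.48 above 1000 codons. The cultures thus shared the low values of short frames and differed for long ones.

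The short frames were low even among short transcripts. Among transcripts of at most 1000 bases, the median loading was −0.63 for at most 70 codons (54 genes; −0.15 and −0.83 in the cultures) and 0.87 for 151 to 300 codons (374 genes; 1.26 and 0.31). Among transcripts above 1000 and up to 2000 bases, it was −0.59 for 71 to 100 codons (49 genes) and 0.59 for 151 to 300 codons (957 genes). Both cultures gave the same order of these bins.

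**Figure D4:**
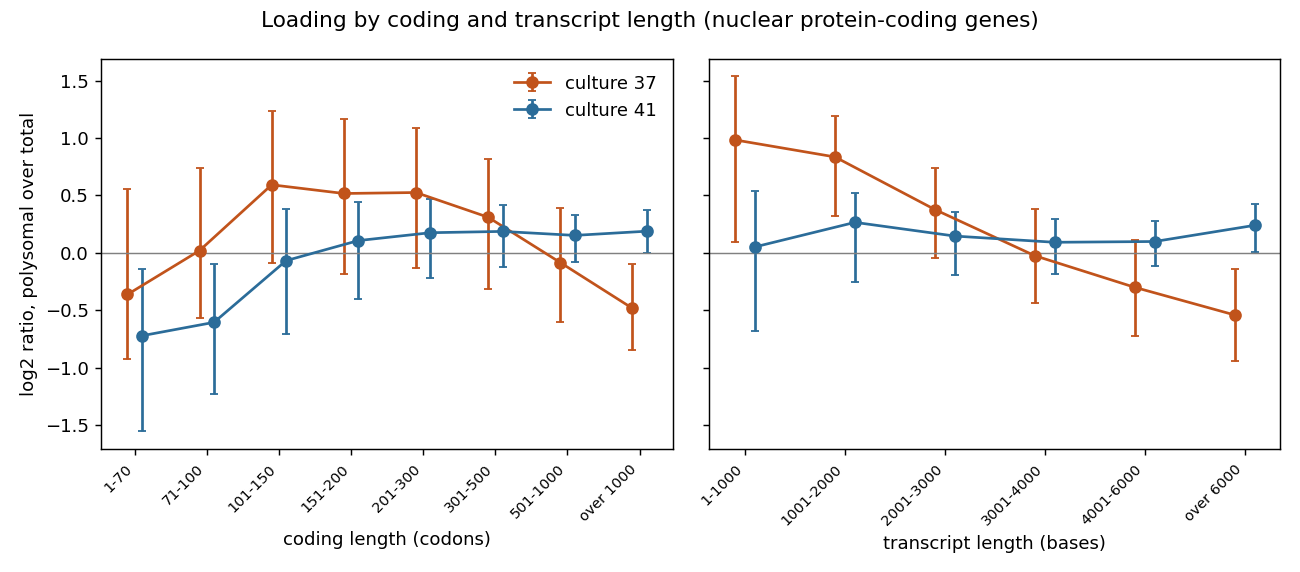
Loading (log2 polysomal over total RNA) of nuclear protein-coding genes by coding length in codons (left) and by transcript length in bases (right), with points for the median, bars for the quartiles over genes and colours for cultures 37 and 41. Medians at 1 to 70 codons lie below those at 201 to 300 codons in both cultures, whereas the decline with transcript length, from 0.98 to −0.54 in culture 37, is not seen in culture 41, from 0.05 to 0.24.

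The length of the 5′ untranslated region and upstream start codons were weakly associated with loading. Their rank correlations with it across genes were −0.23 and −0.22, beside −0.23 for coding length. For the same pair they were −0.26 and −0.23 in culture 37, and −0.10 and −0.13 in culture 41. Genes without an upstream ATG (7696) had a median of 0.20 in normoxic MCF10A, in culture 37 of 0.23 and in culture 41 of 0.20. Genes with more than 4 (711) had a median of −0.13, with −0.37 and 0.03 in the cultures. Genes whose annotated transcript starts with C and 4 further pyrimidines (713, or 5.48%) had a median of 0.10, beside 0.09 for the others. These are properties of 1 annotated transcript per gene, which need not be the one the cells express.

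mRNAs with stress-regulated upstream open reading frames stayed close to the average. Of 19 tested, 5 were higher and 2 lower without overlap, at a median of 0.05 (0.14 and 0.06 in the cultures). The shares were 28.6% and 22.9% over all genes, and 40.1% and 13.1% over those at 10 CPM or more. ATF4, the transcription factor of the integrated stress response, was at 395 and 466 CPM in total and 437 and 233 CPM in polysomal RNA, a loading of −0.36 ± 0.54 (edgeR adjusted p = 0.85). None of the 19 was called in MDA-MB-231 (background 6.15% higher and 9.66% lower).

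The translation apparatus itself gave a divided picture. The 50 large-subunit ribosomal protein mRNAs had a median loading of 0.66, with 24 higher and 2 lower without overlap, and the 33 small-subunit mRNAs had one of 0.64, with 12 higher and 5 lower. The share over all genes at 10 CPM or more was 40.1% higher and 13.1% lower, which the small-subunit counts were near. The cultures did not match, at 1.12 and 0.03 for the large and 1.11 and −0.11 for the small subunit. Ribosomal protein mRNAs took 14.5% of the polysomal reads in culture 37 and 9.0% in culture 41, on either side of the 10.2% and 10.6% in total RNA. They are short transcripts, and the part of transcript length in the gap between cultures was not tested. In MDA-MB-231, edgeR called 19 of the large-subunit mRNAs higher and 4 lower, and 10 of the small-subunit mRNAs higher and 5 lower. The background there was 6.15% higher and 9.66% lower. Under PP242 in normoxic MCF10A, libraries that were not part of this comparison, the medians were −1.98 and −2.0.

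Single ribosomal protein mRNAs were spread over a wide range. RPL19, a large-subunit protein, was at 2147 and 2279 CPM in total and 6007 and 2881 CPM in polysomal RNA, and RPL36AL at 231 and 212 CPM against 992 and 393 CPM, a loading of 1.65 ± 0.48 (edgeR adjusted p = 0.192, DESeq2 adjusted p = 0.0442). FAU, whose product is cleaved to a small-subunit protein, was at 347 and 330 CPM against 1357 and 559 CPM. RPS12, of the small subunit, stood at the opposite end, at 1242 and 1374 CPM against 666 and 204 CPM, a loading of −1.59 ± 0.71. RPS12 was called lower in MDA-MB-231 (loading −2.02, edgeR adjusted p = 0.000108). Ribosomal protein genes have processed pseudogene copies, and how the estimated counts were split between them is uncertain.

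Other TOP mRNAs varied among themselves. Of 27 tested, 15 were higher and 3 lower without overlap, against 40.1% and 13.1% of all genes at 10 CPM or more, at a median of 0.42 (0.71 and 0.12 in the cultures). NPM1, the nucleolar chaperone nucleophosmin, was at 2535 and 2576 CPM against 5265 and 3858 CPM, a loading of 0.84. The elongation factor EEF1A1 overlapped at 12158 and 14277 CPM against 12844 and 10210 CPM. PABPC1, the poly(A)-binding protein that represses its own mRNA, was lowest at 1072 and 876 CPM in total and 253 and 467 CPM in polysomal RNA, a loading of −1.44 ± 0.70 (edgeR adjusted p = 0.341), and it was called lower in MDA-MB-231 (−1.70, edgeR adjusted p = 0.000301).

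Initiation factor mRNAs were mostly higher on polysomes. Of 31 tested, 21 were higher and 3 lower without overlap, against 40.1% and 13.1% of all genes at 10 CPM or more, at a median of 0.45 (0.63 and 0.39 in the cultures). EIF4A1, the cap-complex helicase, was at 1626 and 1679 CPM in total and 3257 and 2541 CPM in polysomal RNA. The 4E-binding protein mRNA EIF4EBP2, whose product blocks the cap-binding factor, was lowest at 51.1 and 55.4 CPM against 17.6 and 35.5 CPM. In MDA-MB-231, 13 of the 31 were called higher (background 6.15%) and 2 lower (9.66%), EIF4EBP2 being one of the latter (−1.11, edgeR adjusted p = 0.00541). Aminoacyl-tRNA synthetase mRNAs had 17 of 23 higher and none lower without overlap, at a median of 0.50 (0.64 and 0.39 in the cultures).

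Proteasome subunit mRNAs were high in both cultures. All 32 had loading above 0, 30 were higher in both polysomal libraries and none was lower, against 40.1% and 13.1% of genes at 10 CPM or more. The median was 1.07 (1.33 in culture 37 and 0.73 in culture 41), or 0.95 with an offset for transcript length in the fit. Among nuclear protein-coding genes with transcripts above 1000 and up to 2000 bases, 58.1% were higher and 11.8% lower. PSMB6, a catalytic subunit, was at 187 and 179 CPM in total and 647 and 371 CPM in polysomal RNA, a loading of 1.48 ± 0.42 (edgeR adjusted p = 0.192, DESeq2 adjusted p = 0.0489). PSMD1, a large regulatory subunit, was lowest at 117 and 111.8 CPM against 97.7 and 145 CPM. In MDA-MB-231, edgeR called 23 of the 32 higher (background 6.15%) and none lower (9.66%), at a median of 0.58.

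Nuclear-encoded mitochondrial proteins, made on cytosolic ribosomes and imported, stood opposite to the mitochondrially encoded messages of the same complexes. Respiratory chain subunits (76) had a median of 1.01 (1.44 and 0.55 in the cultures), with 57 higher and 4 lower without overlap, against 40.1% and 13.1% of all genes at 10 CPM or more. Mitochondrial ribosomal proteins (78) had a median of 0.93 (1.23 and 0.55), with 66 higher and 1 lower. Transcript length was related to these shares. Nuclear protein-coding genes with transcripts above 1000 and up to 2000 bases had 58.1% higher and 11.8% lower, and up to 1000 bases 44.8% and 16.1%. With an offset for transcript length in the fit, the 2 list medians were 0.99 and 0.77. NDUFS5, a complex I subunit, was at 178 and 164 CPM in total and 793 and 329 CPM in polysomal RNA, a loading of 1.72 ± 0.50 (edgeR adjusted p = 0.192, DESeq2 adjusted p = 0.0427). ATP5B, the catalytic subunit of ATP synthase, was at 801 and 810 CPM against 1536 and 1308 CPM.

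MRPL40, of the large mitochondrial ribosomal subunit, was at 44.8 and 44.9 CPM against 186 and 84.7 CPM. MRPL33, of the same subunit, was the lowest at 84.3 and 81.6 CPM against 56.0 and 27.9 CPM. Both groups of libraries were separate for each gene, in opposite directions. In MDA-MB-231 the medians were 0.53 for the respiratory chain, with 35 called higher and 7 lower (background 6.15% and 9.66%), and 0.47 for the mitochondrial ribosome, with 34 higher and 3 lower.

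Other abundant housekeeping and structural messages were placed above the average. Glycolytic enzymes had 13 of 21 higher and 2 lower without overlap, against 40.1% and 13.1% of all genes at 10 CPM or more, and GAPDH was at 4599 and 5697 CPM in total and 17253 and 7918 CPM in polysomal RNA. Cytosolic chaperonin and heat shock proteins had 17 of 22 higher and none lower, although HSPA8 overlapped at 2485 and 2089 CPM against 1341 and 2595 CPM. Endoplasmic reticulum chaperones and the translocon had 21 of 34 higher and 1 lower. The higher shares of this list and of the glycolytic list were near that of all nuclear protein-coding genes with transcripts of 1000 to 2000 bases (58.1%). The peptidyl-prolyl isomerase PPIA was at 1615 and 1787 CPM against 7021 and 3128 CPM, a loading of 1.58 ± 0.48 (edgeR adjusted p = 0.192). LGALS1, the secreted lectin galectin-1, was at 1312 and 1288 CPM against 5558 and 2429 CPM, a loading of 1.62 ± 0.53 (edgeR adjusted p = 0.202).

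The actin and tubulin list had 20 of 29 higher and none lower without overlap, at a median of 0.52 (0.64 and 0.35 in the cultures), with ACTB at 7856 and 7862 CPM in total and 17280 and 10740 CPM in polysomal RNA. MYL6, the myosin light chain, was at 885 and 781.3 CPM against 3076 and 1575 CPM. Keratins had 5 of 12 higher, a share near the 40.1% of all genes at 10 CPM or more, and none lower, with KRT7 at 4891 and 5381 CPM against 14709 and 7212 CPM and KRT81 at 6746 and 6492 CPM against 22490 and 11562 CPM. Keratin genes have close paralogues, and the assignment of their reads is uncertain.

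Adhesion and matrix messages showed no common direction. The shares without overlap were 28.6% higher and 22.9% lower over all genes, and 40.1% and 13.1% over those at 10 CPM or more. Of 18 integrin mRNAs tested, 4 were higher and 2 lower without overlap, at a median of −0.07 (−0.39 and 0.27 in the cultures). ITGAE, the alpha E chain, was lowest at 56.1 and 56.5 CPM in total and 14.9 and 13.5 CPM in polysomal RNA, a loading of −1.99 (edgeR adjusted p = 0.192, or 0.000176 with the block, DESeq2 adjusted p = 0.0252). ITGB3, the beta 3 chain, was at 6.14 and 5.01 CPM against 0.679 and 6.25 CPM, so its polysomal libraries lay on both sides of the total ones. Laminins, collagens and secreted matrix had 6 of 39 higher and 2 lower, both below these shares, and 31 overlapping. THBS1, a secreted matrix protein, was at 2358 and 1941 CPM against 560 and 1610 CPM.

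Genes of the cell cycle are set beside the 40.1% higher and 13.1% lower of all genes at 10 CPM or more. DNA replication mRNAs had 26 of 40 higher and 1 lower without overlap, at a median of 0.35 (0.42 and 0.28 in the cultures), and mitotic mRNAs had 22 of 33 higher and none lower, at a median of 0.27 (0.27 and 0.29). PTTG1, the securin that restrains sister chromatid separation, was at 161 and 161 CPM in total and 660 and 291 CPM in polysomal RNA. The polyadenylated histone variants had 8 of 11 higher and 1 lower, with H3F3A, encoding histone H3.3, at 804 and 700 CPM against 2228 and 1208 CPM. Replication-dependent histones, which lack a poly(A) tail, had 18 of 42 higher and 8 lower, beside 28.6% and 22.9% of all genes tested since most are at low level, and poly(A) selection leaves their values uncertain.

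Regulatory messages are set beside the 28.6% higher and 22.9% lower of all genes. KRAB zinc fingers, a large family of transcriptional repressors, had 43 of 98 lower and 11 higher without overlap, at a median of −0.24, but the medians of the cultures were −0.46 and −0.03. ZNF550 was at 6.62 and 5.96 CPM in total and 1.36 and 3.31 CPM in polysomal RNA (edgeR adjusted p = 0.305, or 0.0247 with the block). In MDA-MB-231, 24 of the 98 were called lower (background 9.66%) and none higher (6.15%), at a median of −0.30. Immediate early and labile mRNAs had 8 of 40 higher and 10 lower, and splicing regulators with poison exons or detained introns had 12 of 41 higher and 14 lower. Over all genes at 10 CPM or more, 40.1% were higher and 13.1% lower. OGT, the O-GlcNAc transferase whose mRNA keeps a detained intron, was at 85.7 and 67.9 CPM against 28.7 and 40.6 CPM, and it was called lower in MDA-MB-231 (−1.32, edgeR adjusted p = 0.00567).

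The ends of the distribution were taken after the values were seen, as the 12 lowest and 12 highest nuclear protein-coding genes at 10 CPM or more whose groups did not overlap. SEPW1, C12orf75, GNG10 and its readthrough partner, OST4 and ITGAE were among the lowest, together with LENG8 at 164 and 93.7 CPM in total and 23.8 and 37.8 CPM in polysomal RNA (edgeR adjusted p = 0.242, or 0.000577 with the block). NDUFS5, NDUFA13, RPL36AL, MRPL40, LGALS1 and PPIA were among the highest. SLX1B, a structure-specific nuclease subunit, was at 1.2 and 0.123 CPM against 44.9 and 37.2 CPM (edgeR adjusted p = 0.1, or 4.19e-30 with the block), so it reached the 10 CPM limit only through the polysomal libraries. It also has a near-identical copy, SLX1A, and the division of reads between them is uncertain.

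The order of the gene lists was set beside that of MDA-MB-231, a separate set of 4 libraries. Of 33 lists, 26 had a higher median in MCF10A than in MDA-MB-231 when each line was scaled and fitted on its own. Structural small RNAs and the mitochondrial rRNAs were left out of these 33. In the joint fit of 32 libraries, however, only 15 of the 33 had a median difference above 0. The median difference over the 18670 genes of that fit was −0.06. No list was tested for a difference between the lines, and a joint fit of the 32 libraries, filtered on its own and with the difference in loading between lines as the term of interest, called 1 of 18670 genes (0.00536%) higher in MCF10A and 0 lower by edgeR, while 386 (2.07%) had an unadjusted p under 0.05 and DESeq2 called 3. The gene called was CHMP4C, which encodes a subunit of the membrane-scission complex ESCRT-III. Its reads in MCF10A were 441 and 447 in total and 390 and 621 in polysomal RNA, and in MDA-MB-231 83 and 72 in total and 22 and 24 in polysomal RNA. Loading was thus higher in MCF10A by 2.18 on the log2 scale (edgeR adjusted p = 0.0354). In the fit with culture as a block no gene was called.

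**Figure D5:**
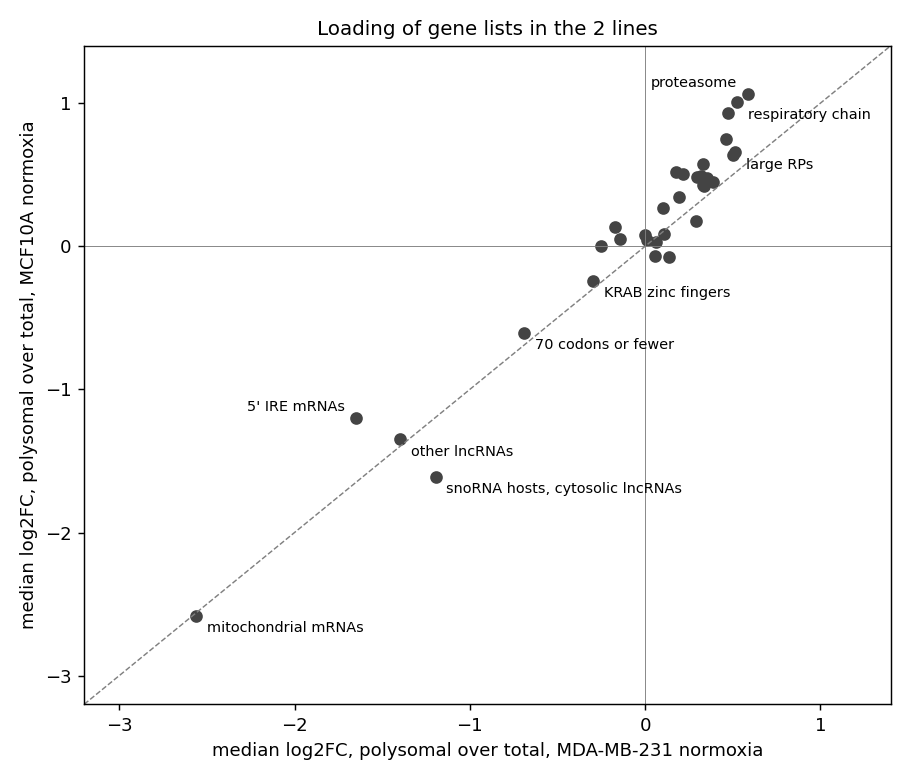
Median loading (log2 polysomal over total RNA) of 33 gene lists in normoxic MDA-MB-231 (horizontal) and normoxic MCF10A (vertical), each point a list, with a dashed line where the medians are equal. Not drawn were structural small RNAs (−4.54 in MCF10A and −2.93 in MDA-MB-231) and mitochondrial rRNAs (−3.30 and −3.81). The mitochondrial mRNAs are the lowest list drawn in both lines at −2.58 and −2.56, and 26 points lie above the line in these separately scaled fits (15 have a difference above 0 in the joint fit), the proteasome list at 1.07 in MCF10A and 0.58 in MDA-MB-231 among them.

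Hypoxia without PP242 was compared as the other baseline of the same line. The difference in loading between hypoxia and normoxia, tested in the same edgeR fit, called 0 of 16723 genes (0.0%), while 66 (0.395%) had an unadjusted p under 0.05 and DESeq2 called 0. List medians in hypoxic cells were −2.57 for mitochondrial mRNAs, −1.58 for the list of small nucleolar RNA hosts and cytosolic non-coding RNAs, −0.93 for the mRNAs with 5′ iron-responsive elements, −0.45 for short frames, 0.94 for the proteasome and 0.02 for the large ribosomal subunit. In normoxia the same medians were −2.58, −1.61, −1.20, −0.60, 1.07 and 0.66. The polysomal libraries of hypoxic cells also differed in their relation to transcript length, with a rank correlation across genes of −0.600 in one culture and 0.319 in the other.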

How the data were processed

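Total and polysomal RNA of MCF10A and MDA-MB-231 was poly(A)-selected and sequenced. The authors deposited gene-level expected counts (RSEM estimates rounded to whole numbers, not normalised) after alignment with STAR. The methods of the study name GRCh38, whereas the submitters' processing notes name GRCh37, RSEM, STAR and edgeR. Gene symbols are those of the files. Transcript features and sequences were read from GRCh38 with GENCODE annotation by gene identifier without version, for 13008 of 13124 nuclear protein-coding genes tested (99.1%). RSEM shares reads between near-identical genes, which makes paralogue counts uncertain. Totals of the 4 libraries ranged from 35547567 to 46032327 reads.

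Counts of the 16 MCF10A libraries, in 8 groups of 2, were filtered (filterByExpr), TMM-scaled and fitted with edgeR 4.0.16 (glmQLFit, glmQLFTest) under R 4.3.3, with limma 3.58.1 as its base, and Benjamini-Hochberg adjusted p under 0.05 was the threshold. Polysomal was compared with total RNA in normoxia. MDA-MB-231 was fitted likewise, and the line difference was tested as an interaction over 32 libraries. DESeq2 1.42.0, other scalings, filters, blocks and left-out libraries were alternatives. CPM used TMM library sizes. Groups were taken not to overlap when both polysomal CPM values lay on one side of both total values.

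Sample numbers in the titles were used to pair a total with its polysomal library. The pairing comes from the titles alone. As a check, the deviations of paired libraries correlated at −0.138 in normoxia, −0.175 in hypoxia, 0.00907 under PP242 and 0.274 under hypoxia with PP242. The fit was tested on simulated data.

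The members and gene lists were chosen with earlier results of these data known. The list of iron-responsive mRNAs was divided into 5′ and 3′ elements, and 1 gene was removed from it, after the design was written. The rule for named genes took, per list, the 2 most abundant members and the highest and lowest log2 ratio, the 10 genes most abundant in polysomal RNA, the most abundant gene of each class, and called genes at 10 CPM or more with groups that did not overlap (none in the main comparison). MT-ND4, MALAT1, EPAS1, GPX4, RPL39, OST4, GNG10, ITGB3 and the 12 lowest and 12 highest uncalled genes were named in addition, after their values were seen. No columns of the files were left without a sample.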

Additional observations from a re-analysis of the deposited data

Results flagged for a closer look

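One result differed between the lines by the test of the difference itself. Polysome loading of CHMP4C was higher in normoxic MCF10A than in normoxic MDA-MB-231 by 2.18205 on the log2 scale (edgeR adjusted p = 0.0354, unadjusted p = 1.89e-06), and the polysomal share of its reads was higher in 2 of 2 MCF10A cultures than in either MDA-MB-231 culture. DESeq2 called the same gene (log2 difference 2.31, adjusted p = 3.786e-05), and the fit with culture as a block called none. When 1 library was left out in turn, the call remained in 1 of 8 fits, that without the polysomal library of MCF10A culture 41. Total reads of the gene in MDA-MB-231 were few (83 and 72). With 2 libraries in a group, single libraries could not be examined for standing apart from their group.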

How the results depend on the processing

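For the comparison of polysomal with total RNA, the main fit gave 0 genes called higher and 0 lower. The counts of higher and lower genes were 125 and 380 with no filter beyond 1 read, 170 and 242 by DESeq2, 325 and 228 with a length offset, 39 and 453 in the 4 libraries with culture as a block, and 2117 and 705 with a block within each fraction, an alternative added after seeing the data. No gene was called higher and 1 lower with the culture block in 16 libraries or in the 4 libraries alone, 13 lower with upper-quartile scaling, 5 lower after thinning to 30302497 reads, 2 lower when scaling left out mitochondrial and ribosomal protein genes, and 26 lower at an adjusted p under 0.10. RLE scaling and protein-coding genes alone gave 0. Leaving out 1 library gave 0 higher and 0 to 2 lower (MT-RNR1 and MT-RNR2 without the polysomal library of culture 37). The cause of these differences was not tested. For the line difference, DESeq2 called 3 and 0, no filter 41 and 17, and the culture block 0 and 0, and leaving out 1 library gave 0 to 2 higher (0 in 7 of 8 fits) and 0 to 3 lower. For hypoxia against normoxia, no filter gave 4 and 10. With the culture block in the 4 libraries, the log2 ratio of PSMD1 was −0.02 in place of 0.09. List medians ranged from −3.10 to −2.20 for mitochondrial mRNAs and from 0.72 to 1.43 for the proteasome, but from −0.09 (without the polysomal library of culture 37) to 1.25 for the small and from 0.05 to 1.2 for the large ribosomal subunit. For frames of at most 70 codons they ranged from −1.0 to −0.03 (−0.22 without the polysomal library of culture 41, −0.03 with the block within each fraction) and for KRAB zinc fingers from −0.55 to −0.06. For the respiratory chain they ranged from 0.58 to 1.55 and for mitochondrial ribosomal proteins from 0.57 to 1.32, both lowest without the polysomal library of culture 37. Single genes moved too, with NDUFS5 at 0.95 without that library and 2.22 without the polysomal library of culture 41.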
